A study of Mus musculus with 8 samples.

Results

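The comparison described here sets every testis library from mice that received lipopolysaccharide against the vehicle controls, 6 of the 8 libraries of the series against the other 2. All mice were wild-type males. The CTRL mice received PBS. The LPS mice received lipopolysaccharide (LPS), the LPS+DHEA mice received LPS and 6 h later dehydroepiandrosterone (DHEA, a precursor of androgens and oestrogens), and the LPS+DHEA+Nb mice received LPS and 6 h later DHEA together with Nb23-bi, whose nature the labels leave undescribed. Each of the 4 groups has 2 libraries. The question is which genes differed from CTRL in the same way in all 3 LPS groups, whatever was injected afterwards. No second injection is given for CTRL or for the group with LPS alone, so the injection itself and DHEA cannot be told apart. No source used here gives the doses, the age of the mice or the time of tissue collection. None says that paired libraries of 1 group are different animals, and the SE and p-values therefore cover only library-to-library spread, which may be technical.

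LPS is a component of the outer membrane of gram-negative bacteria. It is recognised by Toll-like receptor 4 with its partners Cd14, Lbp and Ly96, and signalling through NF-kB and interferon regulatory factors switches on cytokines, chemokines, acute phase proteins and antigen presentation. In the testis, resident macrophages, Sertoli cells, peritubular myoid cells and endothelial cells can respond, while most of the RNA comes from germ cells. A change in a small cell population therefore appears at low levels in whole testis, and fewer or more cells of a type cannot be told apart from less or more RNA per cell.

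Each library held 61.3 to 64.5 M counts over 30142 to 30626 genes with a count, and mitochondrially encoded genes took 0.89 to 1.23% of them. The extraction protocol speaks of islets, whereas the tissue label says testis. Defining testis genes were abundant in each library: the spermatid gene Prm1 stood at 2382 to 2936 CPM and the Leydig cell hormone gene Insl3 at 484 to 597 CPM. CPM are counts scaled to 1 M of the library's TMM-scaled total, and levels are not corrected for gene length, so they are compared between libraries and not between genes. No 2 libraries of a group were near-identical.

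Genes were called where the mean of the 3 LPS groups differed from CTRL at an adjusted p under 0.05 (edgeR quasi-likelihood test, Benjamini-Hochberg adjustment over 26414 genes). In all, 55 genes were called, 44 higher (0.167%) and 11 lower (0.0416%) in the LPS-exposed libraries, together 0.208% of the genes tested. At an unadjusted p under 0.05 there were 1637 genes, 917 higher and 720 lower. A called gene was counted as moved alike if all 6 LPS-exposed libraries lay on the same side of both CTRL libraries and the 3 group log2 fold changes had 1 sign, the smallest being at least 0.5 of the largest. By this definition 23 genes (0.0871%) moved alike, 18 higher (0.0681% of genes tested) and 5 lower (0.0189%). Regardless of the test, 4.44% of genes had all 6 LPS-exposed libraries above both CTRL libraries and 4.22% had all 6 below. The 3 group folds share the CTRL libraries, so that a chance deviation in CTRL enters all 3. The similarity of the folds of these 23 genes was a condition of the choice and is given as a description.

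The 18 genes that rose alike included Saa3 and Timp1 as secreted acute phase products, the chemokine gene Ccl7, the pattern and chemoattractant receptor genes Tlr2, Marco, Fpr1, Fpr2 and Clec4a1, the inhibitory receptor gene Pirb, the adaptor gene Hcls1, as well as Cd38 and Ms4a6d. Chrdl1, Aif1l, Anp32e, Nol8 and Gm20633 were also among them. The 5 genes that fell alike were Ncoa4, Zfp426, Pxn, B830017H08Rik and Gm44790. Gm20633, B830017H08Rik and Gm44790 fall outside the rule for naming genes and were named after their values were seen.

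Promoter sequences are shown for 4 genes with large fold changes, an acute phase gene, a scavenger receptor, a protease inhibitor and a chemoattractant receptor, so that the letters before their starts can be read beside their levels. Of the 23 genes, 16 had an entry in the RefSeq promoter table (GRCm38.p6). Each line gives the 250 bases before the start, 5′ to 3′ on the gene's strand. Capitals mark matches on either strand to 3 motifs: the general form of an NF-kB site (GGG and CC with 5 bases of any kind between them), TTCNNNGAA, a form of the STAT site, and TTNNGNAA, a loose form of the C/EBP site. Matches may overlap each other. Saa3 was read at chr7:46715677-46715926 on the minus strand, Marco at chr1:120505025-120505274 on the minus strand, Timp1 at chrX:20869916-20870165 on the plus strand and Fpr2 at chr17:17887574-17887823 on the plus strand.
Saa3: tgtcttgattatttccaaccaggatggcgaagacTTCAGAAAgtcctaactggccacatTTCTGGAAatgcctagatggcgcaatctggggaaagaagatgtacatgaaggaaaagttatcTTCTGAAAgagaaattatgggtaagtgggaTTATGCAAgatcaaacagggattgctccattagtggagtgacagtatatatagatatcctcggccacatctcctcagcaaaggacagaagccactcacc
Marco: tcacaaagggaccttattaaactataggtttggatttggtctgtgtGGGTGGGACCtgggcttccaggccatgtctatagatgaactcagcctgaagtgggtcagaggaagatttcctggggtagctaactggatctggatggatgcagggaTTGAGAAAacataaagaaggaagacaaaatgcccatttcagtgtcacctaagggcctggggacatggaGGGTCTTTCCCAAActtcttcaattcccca
Timp1: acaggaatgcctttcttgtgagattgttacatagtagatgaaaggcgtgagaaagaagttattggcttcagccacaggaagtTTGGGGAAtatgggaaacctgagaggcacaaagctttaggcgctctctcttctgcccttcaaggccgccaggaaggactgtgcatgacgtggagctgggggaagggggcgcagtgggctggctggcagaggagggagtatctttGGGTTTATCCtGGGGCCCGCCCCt
Fpr2: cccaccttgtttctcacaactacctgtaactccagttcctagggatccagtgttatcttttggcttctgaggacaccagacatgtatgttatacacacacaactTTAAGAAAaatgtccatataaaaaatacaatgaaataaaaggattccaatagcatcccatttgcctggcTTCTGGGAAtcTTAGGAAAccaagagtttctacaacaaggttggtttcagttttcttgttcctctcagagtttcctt
The Saa3 window held 4 matches to the C/EBP form and none to the other motifs. Marco held 3 NF-kB and 3 C/EBP matches, Timp1 held 4 NF-kB and 1 C/EBP match, and Fpr2 held 1 STAT and 2 C/EBP matches. Over the 13 starts of the genes that rose alike, 6 (46.2%) held the NF-kB form, against 45.8% of the 32851 starts in the table. The STAT form was in 2 of 13 (15.4%, against 7.02% of all starts) and the C/EBP form in 8 of 13 (61.5%, against 36.8%). Among the 5 starts of genes that fell alike, 3 held the NF-kB form and none the other 2 motifs. A match is a description of letters and not evidence of binding.

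Saa3, a serum amyloid A gene of the acute phase response (GRCm38 chromosome 7, 46711998 to 46715700), had the largest fold among the genes that rose alike and had a count in CTRL. Its level was 0.895 and 1.48 CPM in CTRL, 114 and 161 CPM in LPS, 93.9 and 98.1 CPM in LPS+DHEA, and 16.6 and 12.3 CPM in LPS+DHEA+Nb. Every LPS-exposed library was far above both controls, and the 3 LPS groups did not overlap each other. The mean log2 fold change was 5.59 (SE 0.31, adjusted p = 0.00523), made up of 6.85, 6.33 and 3.6 in the 3 groups in that order. Timp1, an inhibitor of matrix metalloproteinases (chromosome X, 20870166 to 20874735), stood at 0.863 and 1.09 CPM in CTRL. It reached 10.6 and 11 CPM in LPS, 7.5 and 9.5 CPM in LPS+DHEA, and 3.97 and 2.57 CPM in LPS+DHEA+Nb (log2 fold change 2.77, SE 0.23, adjusted p = 0.00105). Here too the groups were ordered and did not overlap. Saa3 and Timp1 were the only 2 of the 23 genes that also differed among the 3 LPS groups (adjusted p = 0.0417 for each, F-test of equal group means). Both lay close to the limit of the definition, with fold ratios of 0.526 and 0.502. Timp1 overlaps Syn1 on the opposite strand, and no source used here gives the strand setting of the counting.

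Tlr2, the receptor for bacterial lipoproteins (chromosome 3, 83836272 to 83841767), was the most even of the receptors. It stood at 0.511 and 0.328 CPM in CTRL, 1.75 and 1.76 CPM in LPS, 1.94 and 1.6 CPM in LPS+DHEA, and 1.67 and 1.8 CPM in LPS+DHEA+Nb. The 6 LPS-exposed libraries lay within a narrow band of 1.6 to 1.94 CPM, and the group log2 fold changes were 2.06, 2.07 and 2.04 (mean 2.06, SE 0.31, adjusted p = 0.0327). Marco, a macrophage scavenger receptor that binds bacteria (chromosome 1, 120474538 to 120505024), stood at 0.304 and 0.219 CPM in CTRL. It was 6.19 and 4.22 CPM in LPS, 6.48 and 4.89 CPM in LPS+DHEA, and 2.6 and 6.97 CPM in LPS+DHEA+Nb (log2 fold change 4.31, SE 0.5, adjusted p = 0.0194). Its lowest and highest LPS-exposed values both came from LPS+DHEA+Nb. Fpr1 and Fpr2, the formyl peptide receptors that guide neutrophils and monocytes to bacterial products, had no count in either CTRL library, which allows up to 0.0474 CPM on average. Fpr2 was 0.504, 0.976, 0.782, 0.589, 0.519 and 0.315 CPM in the LPS, LPS+DHEA and LPS+DHEA+Nb libraries in turn, at least 13-fold higher (adjusted p = 0.026). Fpr1 was 0.614, 0.784, 1.44, 0.85, 0.126 and 0.631 CPM, at least 15.6-fold higher (adjusted p = 0.0476). Both are low, below 1 CPM on average, and the bounds take 3 counts per CTRL library as the floor. Fpr2 overlaps its relative Fpr3 on the same strand, so their reads may have been split.

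Clec4a1, a C-type lectin receptor of myeloid cells, rose from 0.511 and 0.469 CPM to 1.29 to 2.74 CPM after LPS (log2 fold change 2.04, SE 0.34, adjusted p = 0.0476). Pirb, an inhibitory receptor for MHC class I on myeloid and B cells, stood at 0.607 and 0.469 CPM in CTRL and at 1.23 to 3.52 CPM after LPS (log2 fold change 2.05, SE 0.32, adjusted p = 0.0406). Its fold ratio of 0.501 was the one nearest the limit. Ms4a6d, a tetraspan membrane protein of macrophages, went from 0.879 and 0.563 CPM to 1.89 to 3.35 CPM after LPS (log2 fold change 1.89, SE 0.26, adjusted p = 0.0187). Cd38, an enzyme that consumes NAD, went from 0.511 and 0.469 CPM to 1.29 to 3.49 CPM after LPS (log2 fold change 2.11, SE 0.33, adjusted p = 0.0362). These genes were all low in CTRL, and each was lowest after LPS in an LPS+DHEA+Nb library. For Clec4a1 this held for 1 library only: LPS+DHEA+Nb 2 was at 2.46 CPM, and its log2 fold changes were 1.94 in LPS, 2.25 in LPS+DHEA and 1.93 in LPS+DHEA+Nb. Hcls1, a cortactin relative of blood cells, was more abundant, with 1.6 and 1.75 CPM in CTRL and 3.55 to 5.01 CPM after LPS (log2 fold change 1.25, adjusted p = 0.0476).

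The ligand of the group was Ccl7, a chemokine that attracts monocytes. It stood at 0.16 and 0.25 CPM in CTRL, 2.05 and 1.68 CPM in LPS, 2.1 and 1.41 CPM in LPS+DHEA, and 1.04 and 0.568 CPM in LPS+DHEA+Nb (log2 fold change 2.74, SE 0.42, adjusted p = 0.0358). The LPS and LPS+DHEA libraries overlapped each other, and both LPS+DHEA+Nb libraries were below them. Ccl12, the neighbouring monocyte chemokine, had 0 and 0.125 CPM in CTRL and 0.629 to 2.9 CPM in the 6 LPS-exposed libraries, but missed the threshold (adjusted p = 0.061). Chrdl1, a secreted antagonist of BMP signalling, rose from 2.08 and 1.53 CPM to 3.26 to 7.12 CPM after LPS (log2 fold change 1.45, SE 0.24, adjusted p = 0.0476). Aif1l, an actin-binding protein, stood at 0.431 and 0.735 CPM in CTRL and at 1.92 to 2.62 CPM after LPS, with group log2 fold changes of 2, 1.9 and 2.04 (adjusted p = 0.0346). Aif1l overlaps the antisense gene Gm13442.

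**Figure D1:**
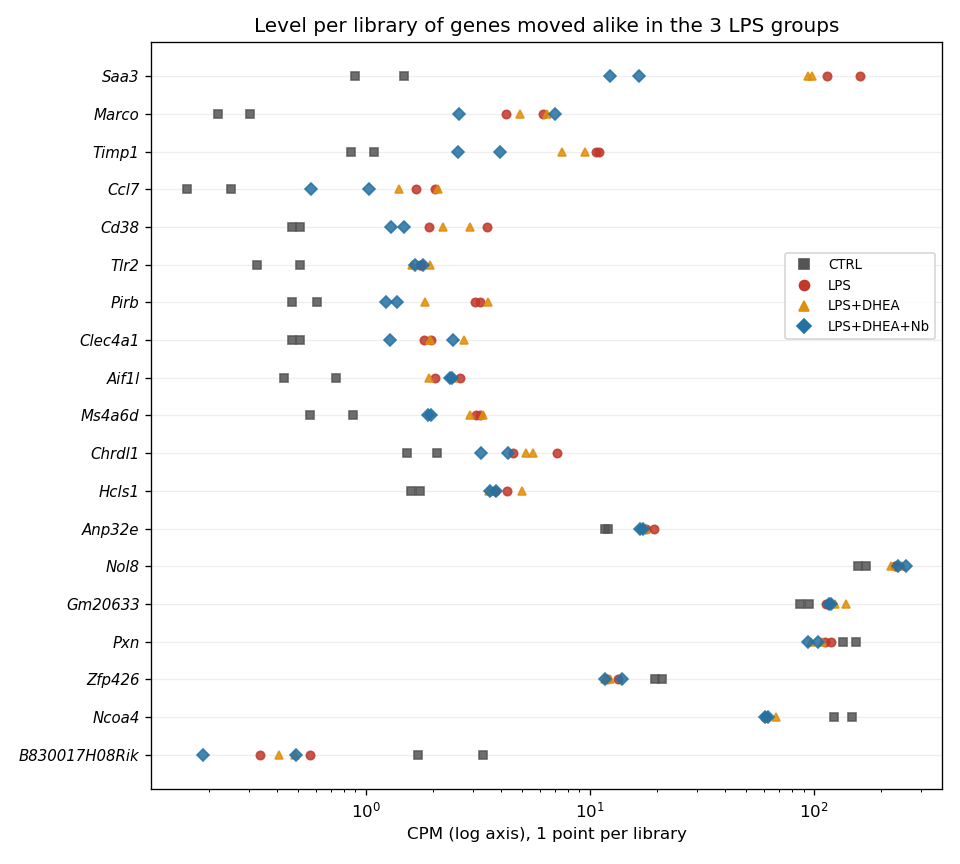
Level in CPM (horizontal log axis) of 19 of the 23 genes that moved alike, 1 point per library, marked by group; the 3 genes with no count in CTRL or in the LPS-exposed libraries and 1 gene not reported here are not drawn. In each row the 2 CTRL squares stand apart from the 6 LPS-exposed points, and in Saa3 and Timp1 the LPS+DHEA+Nb diamonds lie between CTRL and the other LPS groups.

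The gene called most clearly among those that moved alike was lower, not higher. Ncoa4, the cargo receptor that delivers ferritin to autophagy and so releases stored iron (chromosome 14, 32159865 to 32179855), stood at 123 and 148 CPM in CTRL. It was 60.9 and 60.6 CPM in LPS, 61.3 and 67.5 CPM in LPS+DHEA, and 60.7 and 62.3 CPM in LPS+DHEA+Nb (log2 fold change -1.13, SE 0.07, adjusted p = 0.000152). The 6 LPS-exposed libraries were nearly level, and the 3 groups had log2 fold changes of -1.16, -1.07 and -1.14. Nol8, a nucleolar protein gene (chromosome 13, 49653078 to 49679016), moved in the other direction, less evenly (fold ratio 0.83, against 0.93 for Ncoa4). It stood at 170.5 and 158 CPM in CTRL, 232 and 231 CPM in LPS, 221 and 248 CPM in LPS+DHEA, and 238 and 258 CPM in LPS+DHEA+Nb (log2 fold change 0.54, SE 0.06, adjusted p = 0.00938). Its libraries did not overlap CTRL although the change was small. Ncoa4 and Nol8 were the only genes of the 23 that were also called in each of the 3 LPS groups against CTRL by itself.

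Other abundant genes moved by small amounts. Zfp426, a zinc finger gene, fell from 19.6 and 21.1 CPM to 11.7 to 14 CPM after LPS (log2 fold change -0.71, SE 0.11, adjusted p = 0.0304), with group values of -0.69, -0.77 and -0.67. Pxn, which encodes the focal adhesion adaptor paxillin, fell from 135 and 154 CPM to 94.6 to 119 CPM after LPS (log2 fold change -0.45, SE 0.07, adjusted p = 0.0447). Anp32e, a chaperone of the histone variant H2A.Z, rose from 12.1 and 11.7 CPM to 16.8 to 19.3 CPM after LPS (log2 fold change 0.58, SE 0.1, adjusted p = 0.0473). Its 6 LPS-exposed values were close together and apart from both controls. Gm20633, a gene model that overlaps the histone gene Hist2h2aa1, rose from 94.9 and 86.7 CPM to 114 to 139 CPM (log2 fold change 0.42, adjusted p = 0.0439), and its reads cannot be told apart from those of the histone gene without the strand. B830017H08Rik stood at 3.32 and 1.7 CPM in CTRL and 0.189 to 0.567 CPM after LPS (log2 fold change -2.61, adjusted p = 0.0275). Gm44790, at 1.57 and 0.953 CPM in CTRL, had no count in any of the 6 LPS-exposed libraries, at least 26.5-fold lower with 3 counts per library as the floor (adjusted p = 0.0114). It overlaps Tia1 and C87436 on the same strand.

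**Figure D2:**
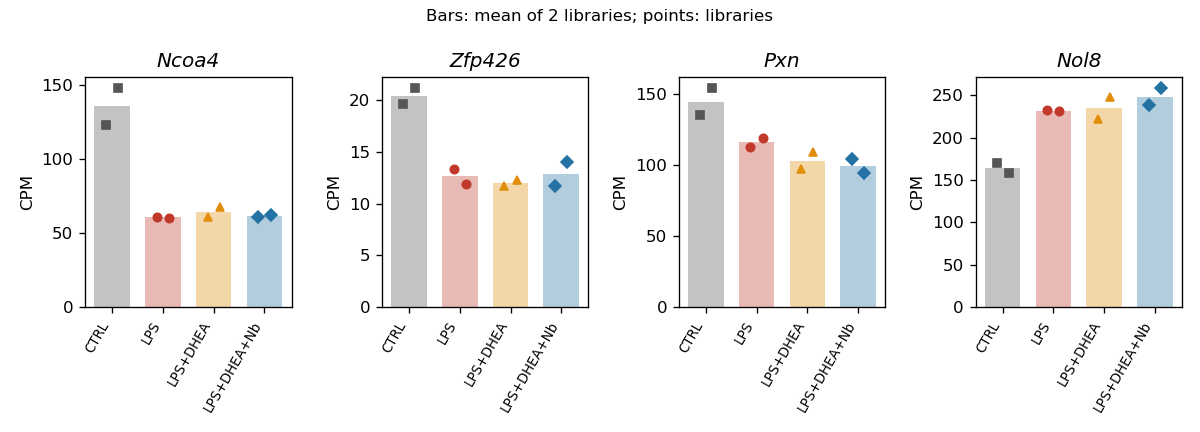
Level in CPM of Ncoa4, Zfp426, Pxn and Nol8 (vertical axes starting at 0), with bars for the mean of the 2 libraries of a group and points for the libraries. Ncoa4 is 60.6 to 67.5 CPM in each LPS-exposed library against 123 and 148 CPM in CTRL, and the other 3 genes show smaller steps.

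The calls rest on 2 CTRL libraries. Of the 23 genes that moved alike, 5 were still called without CTRL 1, 6 without CTRL 2, and 5 without LPS+DHEA 1, while 14 to 19 were called when 1 of the other 5 libraries was left out. Saa3, Timp1 and Ncoa4 were called in each of these 8 cases. With limma-voom in place of edgeR, 10 of the 23 were called, and the calls of Marco, Tlr2, Fpr1, Fpr2, Clec4a1, Pirb, Cd38, Ccl7, Hcls1, Chrdl1, Aif1l and Anp32e were lost (adjusted p from 0.0515 for Anp32e to 0.563 for Marco). The adjusted p of the genes that were lost ran from 0.0568 (Pxn) to 0.371 (B830017H08Rik) without CTRL 1 and from 0.0853 (Nol8) to 0.368 (Pxn) without CTRL 2. Without LPS+DHEA 1 it ran from 0.0559 (Ms4a6d) to 0.112 (Fpr1). Without LPS 2 it ran from 0.0503 (Aif1l) to 0.0727 (Anp32e). Leaving out LPS 1 ended the call of Clec4a1 (0.0641), Hcls1 (0.0533), Fpr1 (0.0585) and Pxn (0.0652). Leaving out LPS+DHEA 2 ended 7 calls, from 0.0547 (Zfp426) to 0.0952 (Chrdl1). Either LPS+DHEA+Nb library alone ended 4 calls, at 0.0528 to 0.0675 for Gm20633, Hcls1 and Anp32e, with Chrdl1 (0.0579) without the first and Pxn (0.0547) without the second.

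The other 32 called genes, 26 higher and 6 lower, did not move alike. In 22 of them the 6 LPS-exposed libraries stood apart from CTRL but the group folds were too unequal, and in 10 the libraries overlapped CTRL. In 28 of the 32 the smallest of the 3 group folds was that of LPS+DHEA+Nb, and in 30 the largest was that of LPS. Of the 23 genes that moved alike, 16 had their smallest fold in LPS+DHEA+Nb and 12 their largest in LPS. The median fold ratio was 0.22, against 0.83 for the genes that moved alike, which the definition requires to be larger. Across all genes tested, 43 (0.163%) differed among the 3 LPS groups at an adjusted p under 0.05 in the F-test of equal means, and 24 of them were also called against CTRL.

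Ceruloplasmin, the copper-carrying ferroxidase encoded by Cp, shows the common form. It stood at 8.21 and 9.03 CPM in CTRL, 43.9 and 45.7 CPM in LPS, 32.2 and 34.6 CPM in LPS+DHEA, and 14.3 and 12.2 CPM in LPS+DHEA+Nb. All 6 libraries were above CTRL, but in 3 separate steps (mean log2 fold change 1.65, SE 0.1, adjusted p = 0.000152; adjusted p = 0.000325 among the LPS groups). Lrg1, a secreted glycoprotein of endothelium and the acute phase, was 4.33 and 5 CPM in CTRL, 31.5 and 22.2 CPM in LPS, 17.4 and 16.3 CPM in LPS+DHEA, and 6.42 and 6.31 CPM in LPS+DHEA+Nb (adjusted p = 0.00234 against CTRL and 0.00315 among the LPS groups). Icam1, the endothelial adhesion molecule for leukocytes, was 1.87 and 1.92 CPM in CTRL and 7.92 and 8.17, 6.9 and 6.93, and 2.85 and 2.7 CPM in the 3 groups in turn (adjusted p = 0.00523 and 0.015). In each of these genes the LPS and LPS+DHEA libraries stood far above CTRL, and the LPS+DHEA+Nb libraries were nearest to it. Acta2, the smooth muscle actin of peritubular myoid cells, was 45.3 and 46.7 CPM in CTRL, 103 and 93.6 CPM in LPS, 83.9 and 102 CPM in LPS+DHEA, and 51.1 and 53 CPM in LPS+DHEA+Nb, so that LPS and LPS+DHEA overlapped (adjusted p = 0.00589 and 0.00838). Lcn2, which binds bacterial siderophores, was 127 and 125 CPM in CTRL and 327 and 314 CPM in LPS, and its LPS+DHEA+Nb libraries at 140 and 104 CPM overlapped CTRL (adjusted p = 0.0406 and 0.00838).

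Some genes that were called stood near the limit of the definition. The protease inhibitor gene Serpina3n was 4.7 and 6.91 CPM in CTRL, 74.8 and 92.2 CPM in LPS, 54.2 and 50.2 CPM in LPS+DHEA, and 22.7 and 15.4 CPM in LPS+DHEA+Nb (log2 fold change 2.91, SE 0.23, adjusted p = 0.0105). Its fold ratio of 0.446 was the highest outside the limit, followed by Tmem176a at 0.433 and the complement protease gene C1ra at 0.41. On the inside the nearest were Pirb, Timp1 and Saa3, so Saa3 and Serpina3n, with like patterns, fall on different sides. Neither Serpina3n (adjusted p = 0.106) nor C1ra (0.113) nor Tmem176a (0.171) passed the test among the LPS groups. Serpina3n lost its call without LPS+DHEA 1 (adjusted p = 0.0596) and C1ra without CTRL 2 (0.0502).

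A few calls came from part of the LPS groups only. Scd2, a fatty acid desaturase gene, was 168 and 162 CPM in LPS and 46.1 to 49.9 CPM in the other 2 LPS groups, against 55.7 and 47.8 CPM in CTRL. Nupr1l was lower in LPS alone, at 63.6 and 55.2 CPM against 171 and 182 CPM in CTRL and 175 to 195 CPM in the other LPS groups. Their calls against CTRL (adjusted p = 0.032 and 0.016) therefore describe 1 group of the 3, and the differences among the LPS groups were the clearer result (adjusted p = 7.67e-06 and 2.28e-05). 1700027A15Rik was 82.7 and 85.7 CPM in LPS+DHEA+Nb, 207 to 218 CPM in the other LPS groups and 257 and 245 CPM in CTRL (adjusted p = 1.13e-05 among the LPS groups). It overlaps the abundant spermatid gene Tnp1 on the opposite strand. Apc, the scaffold of the beta-catenin destruction complex, went against the usual order. It was 26.4 and 23.8 CPM in LPS and 24.9 and 23.8 CPM in LPS+DHEA+Nb, but 8.89 and 11.5 CPM in LPS+DHEA, against 8.17 and 6.47 CPM in CTRL (adjusted p = 0.0129 among the LPS groups). Scd2 lost its call against CTRL without CTRL 2 (adjusted p = 0.226), LPS+DHEA 1 (0.0722) or LPS+DHEA 2 (0.0533), and Nupr1l without CTRL 1 (0.0505), CTRL 2 (0.142) or LPS+DHEA 1 (0.0528).

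**Figure D3:**
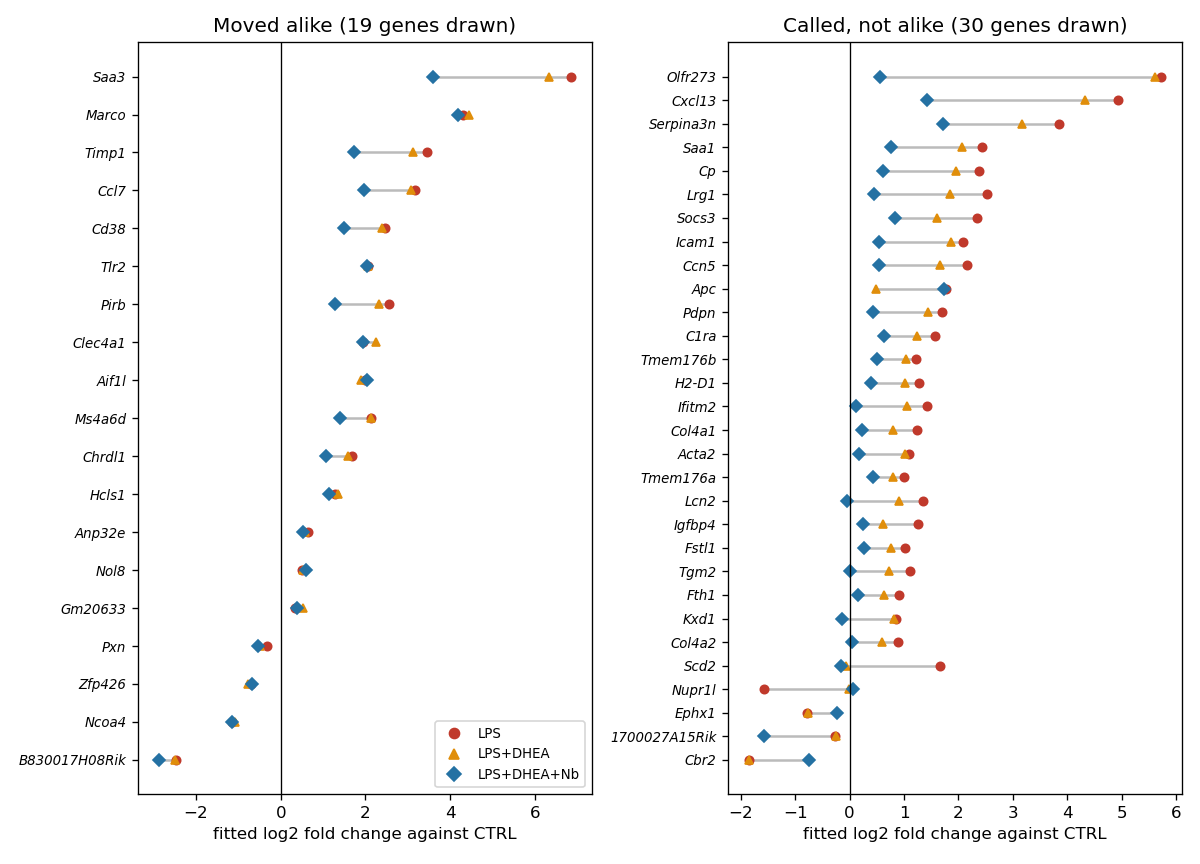
Fitted log2 fold change against CTRL (horizontal axis) of each LPS group, 1 row per called gene, with 19 genes that moved alike on the left and 30 that did not on the right; 5 genes at 0 in a group and 1 not reported here are left out. On the right the LPS+DHEA+Nb diamonds mostly lie nearest 0 and the LPS circles farthest from it, except in genes such as Apc; the 3 folds share the CTRL libraries.

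Gene lists were counted with the same fit. Of 29 acute phase and injury genes tested, 7 rose and none fell (44 of 26414 genes, 0.167%, rose in all), and their median log2 fold change was 0.75 against 0 over all genes. The 7 were Saa3 and Timp1, which moved alike, and Cp, Lrg1, Serpina3n, Lcn2 and Saa1, which did not. The group medians were 1.35 in LPS, 1.27 in LPS+DHEA and 0.16 in LPS+DHEA+Nb. Of 29 cytokines and chemokines, Ccl7 and Cxcl13 rose (median 0.68). Cxcl13, which attracts B cells, was 0.0959 and 0.125 CPM in CTRL, 2.18 to 3.7 CPM in LPS and LPS+DHEA, and 0.472 and 0.126 CPM in LPS+DHEA+Nb (adjusted p = 0.022 against CTRL and 0.049 among the LPS groups). The early cytokine genes Tnf (adjusted p = 0.965), Il1b (0.973) and Cxcl10 (0.856) did not pass, and Il6 had at most 9 counts in a library and was not tested. Cxcl13 lost its call without CTRL 1 (adjusted p = 0.149), CTRL 2 (0.132) or LPS+DHEA 1 (0.0592), and Lcn2 and Saa1 without any 1 of the CTRL, LPS or LPS+DHEA libraries (Lcn2 0.0767 to 0.308, Saa1 0.0501 to 0.252).

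Of the 24 genes on the list for Toll-like receptor 4 signalling, Tlr2 alone rose and none fell (median 0.11). Over all genes tested 0.167% rose and 0.0416% fell. Tlr2 is a separate receptor, for bacterial lipoproteins, that the list includes. Tlr4 itself was 0.32 and 0.297 CPM in CTRL and 0.237 to 0.661 CPM after LPS, overlapping CTRL (log2 fold change 0.49, SE 0.57, adjusted p = 0.962). Cd14 was 0.978 to 5.32 CPM against 1.97 and 1.53 CPM in CTRL (adjusted p = 0.759). Icam1 was the one called gene of 24 NF-kB feedback and adhesion targets (median 0.25), against 0.208% of all genes tested. Socs3, the feedback inhibitor of STAT3 signalling, was the one of 25 on the IL-6 and STAT3 list (median 0.21), against the same share. Socs3 was 1.28 and 0.907 CPM in CTRL and 1.58 to 6.46 CPM after LPS (log2 fold change 1.6, adjusted p = 0.0476). It lost its call without CTRL 1 (adjusted p = 0.121), CTRL 2 (0.332), LPS 2 (0.0702), either LPS+DHEA library (0.108 and 0.0717) or LPS+DHEA+Nb 1 (0.0559).

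The MHC class I list held many genes apart from CTRL in one direction and few calls. Over all genes tested 0.208% were called. In 13 of the 23 MHC class I and antigen processing genes all 6 LPS-exposed libraries lay above both CTRL libraries, against 4.44% of all genes, and in none below. Only H2-D1, a classical class I heavy chain, was called, from 37.7 and 33.2 CPM in CTRL to 39.9 to 90.1 CPM after LPS (log2 fold change 0.9, SE 0.12, adjusted p = 0.022). B2m, the light chain, stood at 42.4 and 36.7 CPM in CTRL, 71 and 90.7 CPM in LPS, 79.2 and 70.9 CPM in LPS+DHEA, and 58.6 and 46.5 CPM in LPS+DHEA+Nb (adjusted p = 0.0502). H2-K1 (log2 fold change 0.52, adjusted p = 0.0534) and the immunoproteasome subunit gene Psmb8 (1.25, adjusted p = 0.108) also stood apart from CTRL without passing. The list's median was 0.79 in LPS, 0.63 in LPS+DHEA and 0.25 in LPS+DHEA+Nb. H2-D1 lost its call without CTRL 1 (adjusted p = 0.0875), CTRL 2 (0.212) or LPS+DHEA 1 (0.0596). Of 26 complement genes C1ra rose, and in 9 all 6 libraries lay above CTRL, against 4.44% of all genes, among them Serping1, the C1 inhibitor gene (adjusted p = 0.0544), and Cfb, the alternative pathway factor B gene, at 4.28 and 6.3 CPM in CTRL and 8.8 to 34.5 CPM after LPS (adjusted p = 0.134). Of 56 interferon-stimulated genes, Ifitm2 was called, though not without CTRL 1 (adjusted p = 0.0959), and 10 stood apart above CTRL, against the same share (median 0.42).

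Iron and copper handling held 3 genes that rose (Cp, Lcn2 and Fth1) and 1 that fell (Ncoa4) of 24 tested. Over all genes tested 0.167% rose and 0.0416% fell, and the list's median was 0.15 against 0. Fth1, the ferritin heavy chain gene, was 121 and 109 CPM in CTRL, 240 and 188 CPM in LPS, 176 and 183 CPM in LPS+DHEA, and 134 and 122 CPM in LPS+DHEA+Nb (log2 fold change 0.57, SE 0.09, adjusted p = 0.0476). Its values were ordered over the 3 LPS groups, whereas those of Ncoa4 were nearly level. The difference of Fth1 among the LPS groups did not pass (adjusted p = 0.0792), and its call was lost without CTRL 1 (0.129), CTRL 2 (0.337), either LPS+DHEA library (0.113 and 0.128) or LPS+DHEA+Nb 1 (0.0701). Of 23 matrix, TIMP and protease genes 3 rose, against 0.167% of all genes: Timp1 and the basement membrane collagen genes Col4a1 and Col4a2. In this list 8 genes stood apart above CTRL, against 4.44% of all genes (median 0.51). Col4a1 and Col4a2 differed among the LPS groups (adjusted p = 0.017 and 0.0171), and overlap each other at their starts. Col4a1 lost its call against CTRL without CTRL 1 (0.127), and Col4a2 without any 1 library other than LPS 1 (0.0547 to 0.33). Of 28 detoxification genes, only Ephx1, the microsomal epoxide hydrolase gene, was called. It fell from 69.4 and 73 CPM to 40.8 to 42.4 CPM in LPS and LPS+DHEA and to 58.7 and 62.6 CPM in LPS+DHEA+Nb (adjusted p = 0.00523 against CTRL and 0.035 among the LPS groups). Scd2 was the one called gene of 27 lipid and cholesterol genes, Lcn2 of 22 glucocorticoid-responsive genes, and none of 19 core clock genes was called.

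**Figure D4:**
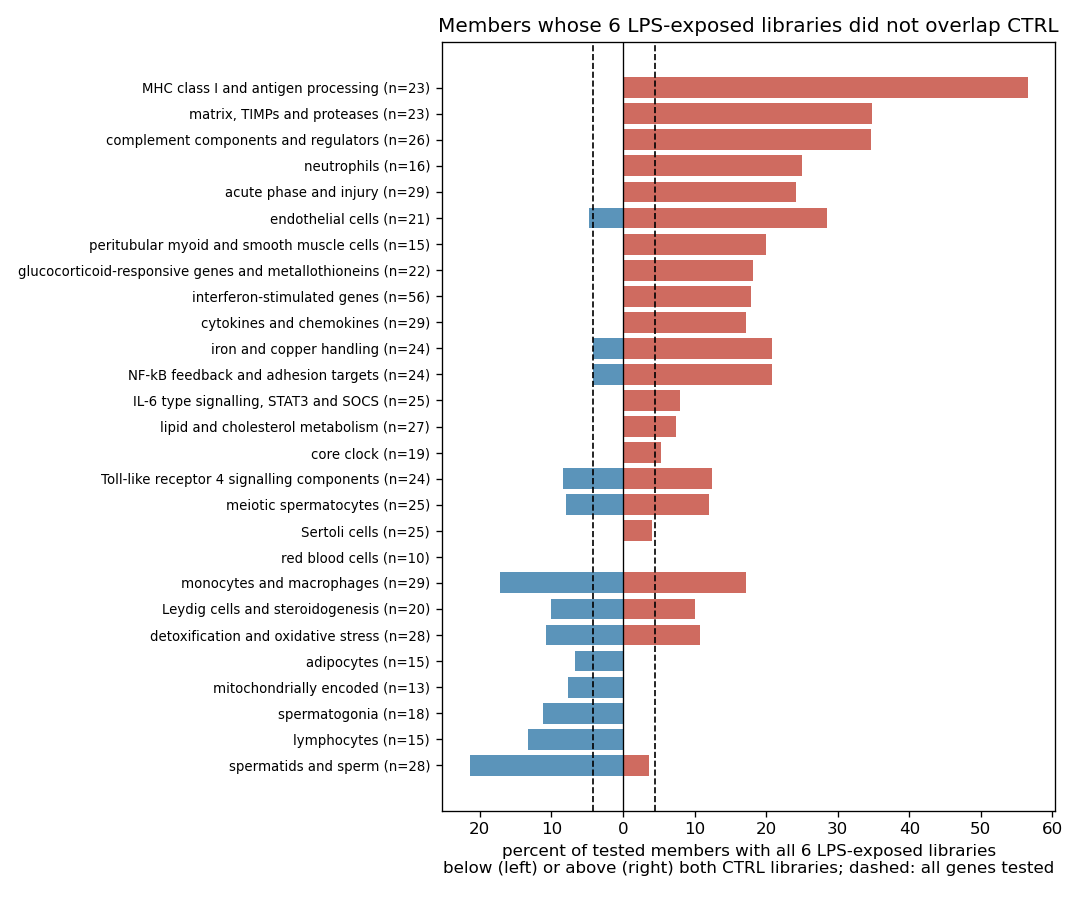
Share of the tested members of each gene list (n beside its name) with all 6 LPS-exposed libraries above (red, right) or below (blue, left) both CTRL libraries, in percent; dashed lines mark the shares over all genes, 4.44% above and 4.22% below. The MHC class I list has the longest bar on the right, and the spermatid list the longest on the left; lists with fewer than 10 tested members are not drawn.

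Markers of testis cell types were counted to see whether they moved with the immune genes. Over all genes tested 0.208% were called. None of 20 Leydig cell and steroidogenesis genes was called (median -0.1). The steroidogenic enzyme gene Cyp17a1 was 106 and 155 CPM in CTRL, 44.2 and 17.4 CPM in LPS, 27.7 and 25.3 CPM in LPS+DHEA, and 113 and 96.3 CPM in LPS+DHEA+Nb, so that the LPS+DHEA+Nb libraries overlapped CTRL (adjusted p = 0.583). None of 25 Sertoli cell, 18 spermatogonial, 25 meiotic or 28 spermatid genes was called. Among the spermatid genes 6 had all LPS-exposed libraries below CTRL, against 4.22% of all genes, by small amounts: Tnp1 was 1578 to 1912 CPM against 1973 and 1949 CPM (log2 fold change -0.15, adjusted p = 0.485), and Prm1 2382 to 2867 CPM against 2912 and 2936 CPM (log2 fold change -0.15, adjusted p = 0.707). Acta2 was the one called gene of 15 myoid and smooth muscle genes, and Lrg1 of 21 endothelial genes, of which 6 stood apart above CTRL, against 4.44% of all genes. The summed level of the endothelial list was 91.8 and 95.1 CPM in CTRL and 108 to 155 CPM after LPS. This sum includes Lrg1, at 4.33 and 5 CPM in CTRL and 6.31 to 31.5 CPM after LPS. None of 15 lymphocyte genes was called. Their median was -0.45, but -0.16, -0.16 and -0.24 in the 3 LPS groups in turn. In 2 of the 15 all 6 LPS-exposed libraries lay below CTRL, against 4.22% of all genes. The list's summed level was 17.7 and 15.3 CPM in CTRL and 11.1 to 13.9 CPM after LPS. None of 13 mitochondrially encoded genes was called, and 0 had a positive fold, against 12987 of all 26414 genes tested. Their median was -0.23 overall and -0.36, -0.23 and -0.1 in the 3 LPS groups. The summed level was 12321 CPM in CTRL 1, 9720 CPM in CTRL 2 and 8746 to 10761 CPM after LPS, so that CTRL 2 lay within the LPS-exposed range. No call was made among 4 epididymal, 15 adipocyte and 10 red blood cell genes.

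Myeloid markers stood on both sides of CTRL. Of 29 monocyte and macrophage genes only Marco was called, against 0.208% of all genes tested. In this list 5 had all LPS-exposed libraries above and 5 all below both CTRL libraries, against 4.44% and 4.22% of all genes (median -0.03). The list's summed level was 367 and 407 CPM in CTRL and 369 to 393 CPM after LPS. The F4/80 gene Adgre1 was 5.18 and 4.53 CPM in CTRL and 6.06 to 13.9 CPM after LPS (log2 fold change 0.87, adjusted p = 0.372), and the integrin gene Itgam 0.447 and 0.672 CPM against 1.05 to 10.6 CPM (adjusted p = 0.464). On the other side, Csf1r, the receptor that maintains tissue macrophages, was 11.8 and 9.77 CPM in CTRL and 4.88 to 7.88 CPM after LPS (log2 fold change -0.81, adjusted p = 0.143). The MHC class II gene H2-Eb1 was 11.1 and 4.72 CPM against 1.72 to 4.33 CPM (log2 fold change -1.66, adjusted p = 0.221). Other class II genes had negative folds with libraries that overlapped CTRL, H2-Aa at -1.97 (adjusted p = 0.601), Cd74 at -1.88 (0.737) and H2-Ab1 at -0.52 (0.845), and CTRL 1 was the highest library in each. Adgre1 and Itgam stood apart above CTRL and Csf1r and H2-Eb1 apart below, and of all these markers only Marco passed the test. The part of these markers in the rise of Tlr2, Pirb, Clec4a1 and Ms4a6d was not tested.

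**Figure D5:**
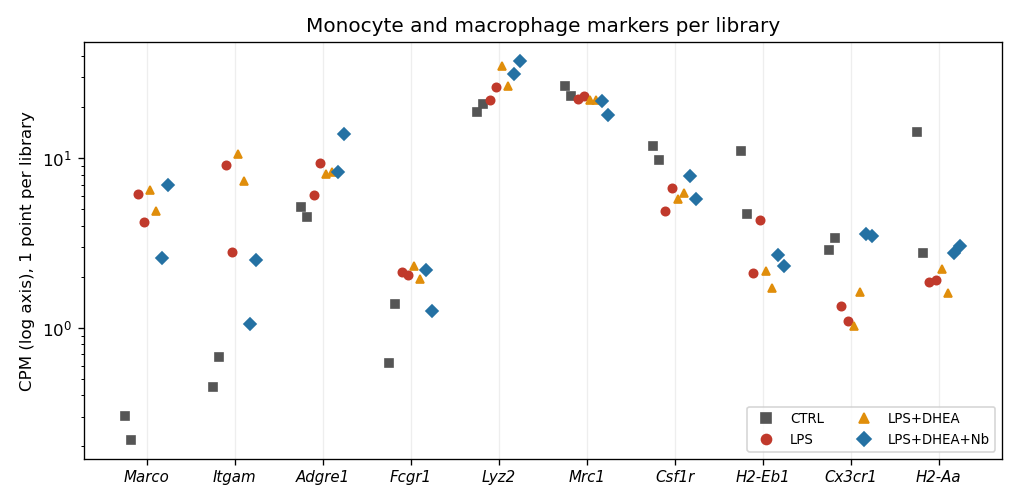
Level in CPM (vertical log axis) of 10 monocyte and macrophage markers, 1 point per library, marked by group. Marco, Itgam, Adgre1 and Lyz2 have every LPS-exposed point above the CTRL squares, whereas Mrc1, Csf1r and H2-Eb1 have every one below.

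Of 16 neutrophil genes tested, Fpr1, Fpr2 and Lcn2 rose, against 44 of all 26414 genes (0.167%). All 16 had a positive fold, against 12987 of all 26414 genes. In 4 of them all 6 LPS-exposed libraries lay above both CTRL libraries, against 4.44% of all genes. S100a8 is among these 4, with the limit given below. No median is given for this list, since several members had no count in CTRL and their fitted folds depend on the prior count. The calgranulin genes S100a8 and S100a9 were 0 to 0.0781 CPM in CTRL. S100a8 was 1.28, 0.784, 1.67, 0.556, 0.0315 and 0.0946 CPM in the LPS, LPS+DHEA and LPS+DHEA+Nb libraries in turn (adjusted p = 0.0635), and S100a9 was 2.44, 1.2, 1.69, 0.72, 0.504 and 0.126 CPM (adjusted p = 0.285). Both were lowest after LPS in LPS+DHEA+Nb, where the 2 counts of S100a8 in the first library lie under the floor of 3 counts and cannot be set above the CTRL zeros. Of the other markers, Ly6g, Elane and Cxcr2 were at or near 0 in every library, with at most 5, 8 and 16 counts. Mpo, the myeloperoxidase gene, was detected at 3.2 and 3.08 CPM in CTRL and 2.5 to 3.96 CPM after LPS (log2 fold change 0.01, adjusted p = 0.998). Csf3r, the receptor gene for G-CSF, was 1.13 and 0.688 CPM in CTRL and 0.299 to 1.47 CPM after LPS (log2 fold change 0.28, adjusted p = 0.977). The summed level of the list without Lcn2 was 27.5 and 31.1 CPM in CTRL and 32.2 to 44.5 CPM after LPS, and its part in the rise of Fpr1 and Fpr2 was not tested.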

How the data were processed

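Total RNA of mouse testis was sequenced in 8 libraries, 2 per group, with groups taken from the sample titles. Per the labels' protocols, library construction used a stranded KAPA kit. The submitters' processing notes name HISAT, featureCounts 1.5.0-p3 and GRCm38, with no role stated. The deposited values, 1 per Ensembl gene and unscaled, were treated as estimated counts (expected counts). They were whole numbers and needed no rounding. Multiples of 4 made up 33.5% of values between 1 and 40 and 25.0% between 1000 and 10000, so an alternative divided them by 4. The tests had been planned for counts. No source used here gives the strand setting or how multiply matching reads were treated. Intervals and floors cover counting error only, and the floors of 3 counts take the deposited values as counts without division.

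Of 55421 gene identifiers, 55154 had a symbol and a GRCm38 position (GENCODE M21, 1-based). Genes were filtered with filterByExpr (minimum count 10, minimum total 15), leaving 26414, and scaled by TMM (factors 0.985 to 1.015). With edgeR 4.0.16 in R 4.3.3, 4 group means were fitted (glmQLFit, robust), and the mean of the 3 LPS groups was tested against CTRL, and the 3 LPS groups against each other (2 degrees of freedom), adjusting by Benjamini-Hochberg over all genes tested. The common biological coefficient of variation was 0.231. SE is the fold change divided by the square root of F. The steps were tested on simulated data.

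Genes were named by a rule: up to 15 per direction with the largest mean change among those that moved alike, with a symbol other than Gm or Rik and at least 1 CPM in the higher side; the 4 smallest p-values of each list; the 8 smallest p-values of the test among the LPS groups, under the same limits on symbol and level; and a fixed set. Chosen outside it after their values were seen were Apc, 1700027A15Rik, Serpina3n, Saa1, Tmem176a, Tmem176b, Adgre1, Itgam, Mrc1, S100a9, Cxcr2, Mpo, Csf3r, H2-Aa, Cd74, H2-Ab1, Gm15142, Ccn5, Igfbp4, Pdpn and Tgm2. Only some of these are described, and 1 gene that moved alike is counted but not reported here. The genes, lists and rules were chosen with earlier results of these data known. RefSeq sequences were matched by symbol. The alternatives used other scalings and filters, DESeq2 1.42.0, limma-voom (limma 3.58.1), a model with 2 groups only, the replicate number as a block, other thresholds and definitions, and leaving out each library or LPS group.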

Additional observations from a re-analysis of the deposited data

Results flagged for a closer look

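In 3 genes of 81 examined, 1 of the 6 LPS-exposed libraries stood far from the other 5. Chance alone does so in about 1 in 20 genes if all 6 values come from 1 normal distribution. The 6 libraries come from 3 groups, so that rate may not hold here. Ncoa4 was 67.5 CPM in LPS+DHEA 2, against 60.6 to 62.3 CPM in the other 5 libraries, which is still far below CTRL. H2-Eb1 was 4.33 CPM in LPS 2 against 1.72 to 2.68 CPM in the others. Fdxr, a mitochondrial reductase of steroid synthesis, was 25.7 CPM in LPS 1 against 30.5 to 31.5 CPM in the others.

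Over all 26414 genes tested, the folds against CTRL of 43 (0.163%) differed among the 3 LPS groups (edgeR F-test of equal group means, adjusted over all genes). Of these, 25 were among the 81 genes examined, which include genes chosen for a small p-value in this same test. Among the genes of metabolism and of other roles these were Scd2 (adjusted p = 7.67e-06), Nupr1l (2.28e-05), Ephx1 (0.035), Apc (0.0129), Kxd1 (0.00602), 1700027A15Rik (1.13e-05), Gm15142 (0.00838), Olfr273 (0.00564) and Spcs1 (0.00564). The secreted and innate defence genes were Cp (0.000325), Lrg1 (0.00315), Lcn2 (0.00838), Saa3 (0.0417), Cxcl13 (0.049), Ifitm2 (0.0075) and Tmem176b (0.0437). Genes of adhesion, matrix and stroma were Icam1 (0.015), Acta2 (0.00838), Tgm2 (0.00907), Col4a1 (0.017), Col4a2 (0.0171), Ccn5 (0.0198), Igfbp4 (0.0368), Pdpn (0.0417) and Timp1 (0.0417). Spcs1, a signal peptidase subunit gene that was not called against CTRL, was 300.2 and 231 CPM in LPS+DHEA+Nb and 130 to 147 CPM in the other 6 libraries. Gm15142 had no count in the LPS and LPS+DHEA libraries, 1.09 and 1.04 CPM in LPS+DHEA+Nb, and 1.02 and 0.844 CPM in CTRL.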

How the results depend on the processing

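The genes called against CTRL numbered 55, those moved alike 23 and those differing among the LPS groups 43. No filter on low counts gave 95, 44 and 80, DESeq2 221, 95 and 205, and the replicate block 36, 11 and 30. Counts divided by 4 gave 63 called genes and 24 that moved alike. Of the 23 genes, 20 were still called there and 18 still moved alike, and the calls of Fpr1, Fpr2 and Clec4a1 were lost. The labels do not say that a replicate number pairs libraries of different groups. The correlations of the replicate differences between groups were -0.05 to 0.08, which cannot exclude a pairing with small effects or effects on few genes. With limma-voom 12 genes moved alike, 9 of them among the 23, and at an adjusted p under 0.10 there were 36. With 2 groups only, where differences between LPS groups enter the spread, 9 genes were called and all 9 moved alike (Ncoa4, Nol8, Marco, Fpr2, Tlr2, Aif1l, Zfp426, Gm44790 and B830017H08Rik). A fold ratio of at least 0.67 left 13 genes, no limit on the ratio gave 45, and requiring each group to be called by itself left 2.

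Without the LPS group 19 genes were called and 10 moved alike, without LPS+DHEA 19 and 9, and without LPS+DHEA+Nb 95 and 87. Of the 23 genes, only 5 still moved alike without the LPS group and 5 without LPS+DHEA, against 20 without LPS+DHEA+Nb. Marco, Tlr2, Ccl7, Fpr1 and Fpr2 lost their calls without the LPS group and without LPS+DHEA. Leaving out 1 library gave 29 to 80 called genes, 7 to 42 that moved alike and 43 to 83 that differed among the LPS groups. The counts moved by over 1.5 times without LPS+DHEA 1 (29 called, 7 alike), CTRL 1 (37 alike), CTRL 2 (42 alike), and, among the LPS groups, without LPS 1 (83) and LPS+DHEA+Nb 1 (82). The cause was not tested. A lone library was assumed to vary like the other groups, and more genes passed the filter there (28055 to 28120). Ncoa4 was called in 20 of 20 settings, Nol8, Saa3 and Timp1 in 19. The direction turned for Nupr1l (0.03) and Scd2 (-0.12) without the LPS group and for Spcs1 (-0.11) without LPS+DHEA+Nb, none of them moved alike. Genes under about 1 CPM, such as Fpr1 and Fpr2, are limited by their few counts.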
